A study of Zea mays with 12 samples.

Results

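The genes described here are the oxidoreductase and redox enzyme genes of the table of maize kernel expression, chosen by their deposited descriptions. A gene of the identifier range below *Zm00001d002200* was included where the description named a dehydrogenase, reductase, oxidase, oxygenase, P450, desaturase, thioredoxin, glutaredoxin, glutathione, dismutase or catalase. Of 27 genes matched, 9 carry the GO term chloroplast and were left out together with polyphenol oxidase1 (*Zm00001d000001*), which left 17 of the 720 genes of the table. Polyphenol oxidase1 was left out by name, and the other genes by their annotation. By role they comprised a reductase that serves cytochrome P450 enzymes, 3 thiol redox genes, 2 peroxidases, 3 oxygenases, 3 oxidases, 1 dehydrogenase and 4 other reductases, and none was described as a catalase, dismutase, desaturase or glutathione enzyme. Thioredoxin X and both alternative oxidases, which were kept, have other GO terms that place them in the chloroplast.

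Oxidoreductases are enzymes that move electrons between molecules. In plants they supply NADPH-driven electrons to hydroxylases, oxygenate lipids and flavonoids, clear aldehydes, consume hydrogen peroxide in the cell wall, and carry surplus electrons to oxygen in plastids and mitochondria. In the developing maize kernel such genes act in the filial endosperm and embryo as well as in the maternal pericarp, and the RNA analysed here came from whole kernels, in which all of these tissues were mixed.

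RNA-seq was made from kernels of 4 groups with 3 biological replicates each, and thus 12 samples, namely *smk7a* at 20 days after pollination (DAP), WT at 20 DAP, *smk7a* at 12 DAP and WT at 12 DAP. *smk7a* is a recessive small-kernel mutation from an EMS library in the B73 background, and homozygous kernels do not give normal plants, so mutant and WT kernels were picked by phenotype from segregating ears of selfed heterozygous plants of the M8 generation. WT kernels thus came from the ears that carried the mutant kernels, and whether they were heterozygous or homozygous at the locus is not given. Expression is given as FPKM, which divides the fragments of a gene by its length and by all mapped fragments of the sample.

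FPKM are relative to everything else in the sample, and most genes of the table lay higher in *smk7a* on this scale. For *smk7a* over WT the median log2 fold change was 0.53 over the 336 genes tested at 20 DAP and 0.48 over the 365 genes tested at 12 DAP. From 12 to 20 DAP the median change was -0.44 in *smk7a* and -0.55 in WT. The main fold changes are therefore given on the deposited scale and again after median of ratios scaling, which sets the typical gene near 0 (rescaled samples). A gene was called where the adjusted p-value from limma was under 0.05 and the fold change above 2. Endosperm markers (3 of 3 genes expressed) summed to between 183 and 322 FPKM in *smk7a* and between 282 and 331 FPKM in WT at 20 DAP, and to between 195 and 259 FPKM in *smk7a* against between 519 and 548 FPKM in WT at 12 DAP. Of 8 genes with embryo descriptions, 7 were listed at 0 in every sample, and the remaining one lay between 11.2 and 15.4 FPKM in *smk7a* and between 10.03 and 12.7 FPKM in WT at 20 DAP, and between 28.0 and 36.2 FPKM in *smk7a* against between 12.4 and 19.9 FPKM in WT at 12 DAP. Of 7 photosynthesis genes 1 exceeded 1 FPKM and 3 were listed at 0, and they summed to between 0.313 and 3.62 FPKM in *smk7a* and between 2.56 and 4.44 FPKM in WT at 20 DAP, and to between 0.708 and 1.14 FPKM in *smk7a* against between 4.14 and 9.50 FPKM in WT at 12 DAP, where the genotypes did not overlap. The part of these tissue markers in the results was not tested. In such bulk samples fewer cells of a type and less RNA per cell cannot be told apart.

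Of the 17 genes, 10 exceeded 1 FPKM in at least 1 sample, and 9 of these did so in all 12 samples. The other 7 never exceeded 0.245 FPKM. Together the 17 genes made up 2.56% ± 0.0439 of the summed FPKM of the table in *smk7a* and 2.63% ± 0.0784 in WT at 20 DAP (SD, n = 3 each), and these ranges overlapped. At 12 DAP the share was 4.23% ± 0.0936 in *smk7a* and 2.51% ± 0.146 in WT (SD, n = 3 each). All 3 *smk7a* samples at 12 DAP, with 4.13% to 4.296%, stood above all 3 WT samples, with 2.35% to 2.64% (two-sided exact permutation test, p = 0.1, the lowest value possible with 3 samples per group). This share does not depend on a scaling between samples, but it is weighted to the highest genes. It is taken over the 720 genes of the table only and also moves with changes in the other genes of that sum. At 12 DAP NADPH-cytochrome P450 reductase 2 had means of 83.1 FPKM in *smk7a* and 40.4 FPKM in WT, and lipoxygenase6 of 53.1 and 12.6 FPKM. Among the expressed genes, thioredoxin X (4.09 and 4.45 FPKM) and *Zm00001d001909* (9.48 and 14.8 FPKM) had lower means in *smk7a*.

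**Figure D1:**
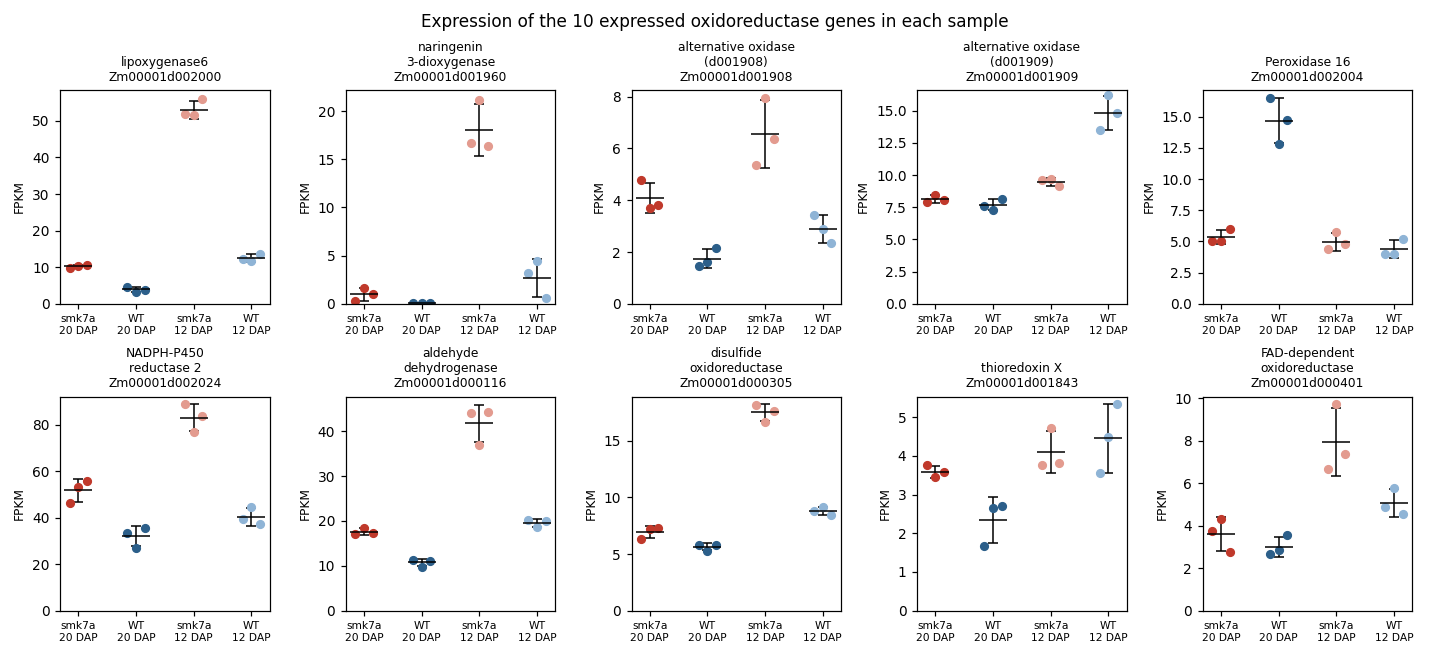
Expression (FPKM, linear axes from 0) of the 10 oxidoreductase genes that exceeded 1 FPKM, with 1 panel per gene. Points are the samples of each group, horizontal lines the group means and bars the SD (n = 3). The *smk7a* samples at 12 DAP stand highest for lipoxygenase6 (51.6 to 55.9 FPKM) and naringenin 3-dioxygenase (16.4 to 21.2 FPKM), whereas Peroxidase 16 stands highest in WT at 20 DAP (12.8 to 16.5 FPKM).

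In *smk7a* against WT at 20 DAP, 9 of the 17 genes passed the filter on low values, of which 2 were higher and 1 was lower past both thresholds. Over all genes tested at 20 DAP, 14.3% were called higher and 1.49% lower. At 12 DAP 10 of the genes were tested, of which 5 were higher and 0 were lower past both thresholds, beside 18.6% called higher and 4.11% called lower over all genes. The count of 0 rests on limma with the fold threshold. At 12 DAP 8 of the genes had an unadjusted p under 0.05, of which 1 lay lower, beside 211 of all 365 genes tested. The median log2 fold change of the genes tested was 0.63 at 20 DAP, beside 0.53 over all genes, and 1.01 at 12 DAP, beside 0.48 over all genes. After median of ratios scaling 0 were called higher and 1 lower at 20 DAP (3.87% and 4.46% over all genes). An unadjusted p under 0.05 was then found for 5, beside 132 of all 336 genes tested. At 12 DAP 2 were then called higher and 1 lower (7.67% and 8.22% over all genes). *smk7a* and WT samples were fully separated in 7 of the 9 genes tested at 20 DAP, above WT in 6 (67.9% of all genes) and below it in 1 (5.36%), and in 8 of the 10 tested at 12 DAP, above WT in 7 (51.5%) and below it in 1 (9.04%). These shares lie near the background at 20 DAP. The filter asked for values above 1 FPKM in 3 or more samples of a comparison, whatever their group. Naringenin 3-dioxygenase passed it in *smk7a* against WT at 12 DAP and in *smk7a* between the stages. In both comparisons the lower group also had samples above 1 FPKM. The gene would not have passed without the *smk7a* samples of 12 DAP.

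**Figure D2:**
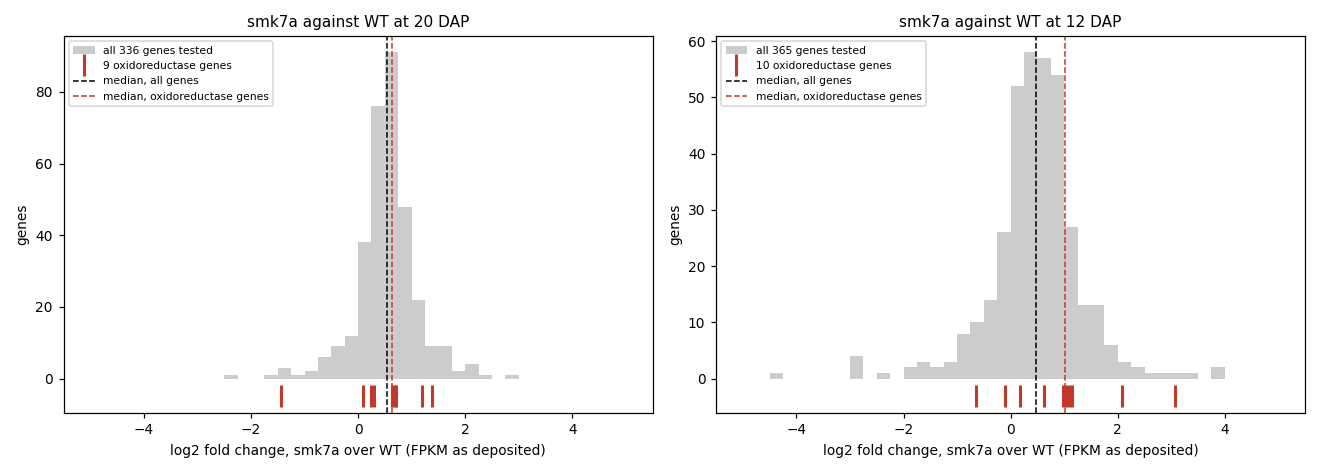
Histograms of log2 ratios of *smk7a* to WT (FPKM as deposited) of all 336 genes tested at 20 DAP and all 365 at 12 DAP, with red ticks for the oxidoreductase genes and dashed lines for the medians. At 20 DAP the medians of 0.63 (oxidoreductase genes) and 0.53 (all genes) lie close together, and at 12 DAP they lie at 1.01 and 0.48.

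Among the oxygenases, *Zm00001d002000* (lipoxygenase6) was higher in *smk7a* at both stages. Many lipoxygenases add oxygen to polyunsaturated fatty acids, the entry step to oxylipins such as jasmonates. The deposited pathway of this gene is linoleic acid metabolism, and the activity of its enzyme was not measured. At 20 DAP it was at 9.90, 10.3 and 10.5 FPKM in the *smk7a* samples and at 4.65, 3.34 and 3.79 FPKM in the WT samples. At 12 DAP it was at 51.7, 51.6 and 55.9 FPKM in *smk7a*, against 12.4, 11.6 and 13.7 FPKM in WT. The groups did not overlap at either stage, and the *smk7a* values of 20 DAP lay below the WT values of 12 DAP. By limma the difference amounted to 1.37 log2 units (SE 0.14) at 20 DAP, with an adjusted p of 0.000133, and to 2.07 (SE 0.13) or 4.20-fold at 12 DAP, with an adjusted p of 0.000116. Scaling by median of ratios left 0.81 at 20 DAP (adjusted p = 0.00138), which is below the fold threshold, and 1.59 at 12 DAP (adjusted p = 0.000426), which is past it. The difference between genotypes was smaller at 20 than at 12 DAP by 0.70 on the log2 scale (SE 0.18), for which limma's interaction term had an adjusted p of 0.0200, or 0.00932 with the samples rescaled.

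*Zm00001d001960*, described as naringenin 2-oxoglutarate 3-dioxygenase, showed the largest log2 fold change between genotypes among these genes tested at 12 DAP. This enzyme, also called flavanone 3-hydroxylase, makes dihydroflavonols, from which flavonols and anthocyanins are formed. At 12 DAP it was at 16.6, 21.2 and 16.4 FPKM in *smk7a* and at 3.16, 4.40 and 0.569 FPKM in WT. The lowest *smk7a* value lay above the highest WT value, but the WT values spread widely, with WT replicate 3 far below the others. In limma the genotypes differed by 3.07 log2 units at 12 DAP (SE 0.63) with an adjusted p of 0.00574, and with rescaled samples by 2.61 (adjusted p = 0.0162). All *smk7a* samples exceeded 1 FPKM, and so did the WT samples with 3.16 and 4.40 FPKM. The gene would not have passed the filter without the *smk7a* samples, and the p-value is to be read with that limit. The log2 difference was 2.24 without WT replicate 3 and 3.61 without WT replicate 2, past both thresholds in each case.

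At 20 DAP naringenin 3-dioxygenase (*Zm00001d001960*) was near the lower end of measurement, with 0.270, 1.62 and 1.04 FPKM in *smk7a* and 0.0790, 0.0765 and 0.0791 FPKM in WT. The filter on low values left it out of the test at this stage. Every *smk7a* value exceeded every WT value (p = 0.1 by a two-sided exact permutation test), and limma without the filter gave 2.34 log2 units (SE 0.54) with an adjusted p of 0.0122, an estimate that depends on the pseudocount. Both genotypes were thus lower at 20 than at 12 DAP. In *smk7a* the log2 change was -4.33 (SE 0.52, adjusted p = 0.000855 by limma), or -3.91 with rescaled samples. The gene passed the filter in this comparison only through the *smk7a* samples of 12 DAP, and the p-value is to be read with that limit. The size of this 20.1-fold drop was uncertain, being 12.9-fold without *smk7a* replicate 1 of 20 DAP, 27.8-fold without replicate 2 and 10.01-fold with a pseudocount of 1 FPKM. The stage interaction was -0.74 (SE 0.90, adjusted p = 0.597), and its error was too large to say whether the genotype difference changed with stage.

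The remaining oxygenase, *Zm00001d000445*, is described as a probable YUCCA11 indole-3-pyruvate monooxygenase, an enzyme of the last step of auxin synthesis from tryptophan. It was listed above 0 in 2 of 12 samples, both *smk7a*, with 0.0552 FPKM in a sample of 20 DAP and 0.0199 FPKM in one of 12 DAP, and was at 0 in all 6 WT samples. Values of this size are too low for a comparison. A related dioxygenase, *Zm00001d001924*, which is described as KAR-UP oxidoreductase 1 and shares the GO term naringenin 3-dioxygenase activity, reached at most 0.134 FPKM in *smk7a* and 0.245 FPKM in WT over both stages. It was not tested, and its *smk7a* and WT values overlapped at both stages.

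Wound and browning genes were measured beside the oxygenases. All 5 of those in the table were expressed, and they summed to between 52.03 and 145 FPKM in *smk7a* and between 51.1 and 98.8 FPKM in WT at 20 DAP, and to between 190 and 311 FPKM in *smk7a* against between 28.5 and 63.0 FPKM in WT at 12 DAP. The genotypes overlapped at 20 DAP and were separated at 12 DAP. In *smk7a* the sum averaged 107 FPKM at 20 DAP and 248 FPKM at 12 DAP, but the genes of the list were split. Polyphenol oxidase1 (9.11 and 87.7 FPKM), *Zm00001d002160* (30.3 and 92.8 FPKM) and *Zm00001d002161* (5.65 and 14.2 FPKM) had lower *smk7a* means at 20 than at 12 DAP. So had lipoxygenase6 and naringenin 3-dioxygenase. In contrast, *Zm00001d002158* (25.1 and 21.3 FPKM) and *Zm00001d002159* (37.4 and 32.1 FPKM) had higher *smk7a* means at 20 DAP. In WT the sum averaged 75.5 FPKM at 20 DAP and 44.3 FPKM at 12 DAP, the opposite order to the *smk7a* sum, but the WT ranges of the stages overlapped. The list includes polyphenol oxidase1, with a mean of 87.7 FPKM in *smk7a* and 6.31 FPKM in WT at 12 DAP. The part of wounding or browning in the 12 DAP levels of lipoxygenase6 and naringenin 3-dioxygenase was not tested.

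Both expressed oxidase genes, *Zm00001d001908* and *Zm00001d001909*, are described as alternative oxidase and carry the synonyms IM and PTOX of Arabidopsis, the plastid terminal oxidase that passes electrons from plastoquinol to oxygen and is needed for carotenoid synthesis. They have neighbouring identifiers and the same GO terms, so whether they are separate genes or pieces of 1 gene, and how reads were split between them, is not known from the sources used here. *Zm00001d001908* was at 4.77, 3.69 and 3.83 FPKM in *smk7a* and at 1.45, 1.62 and 2.15 FPKM in WT at 20 DAP. The 12 DAP samples had 5.35, 7.94 and 6.37 FPKM in *smk7a* and 3.41, 2.90 and 2.34 FPKM in WT. All *smk7a* values thus lay above all WT values at each stage. This came to 1.20 log2 units at 20 DAP (SE 0.18; limma, adjusted p = 0.000795) and to 1.15 at 12 DAP (SE 0.20; adjusted p = 0.00339). After median of ratios scaling the gene was still higher in *smk7a*, with 0.65 at 20 DAP (adjusted p = 0.0368) and 0.68 at 12 DAP (adjusted p = 0.0253), but its fold change was below 2. With a pseudocount of 1 FPKM it was also below 2, at 0.90 log2 units at 20 DAP and 0.95 at 12 DAP, as it was with sample quality weights at 12 DAP (0.95).

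The neighbour *Zm00001d001909* did not follow it. At 20 DAP it was at 7.93, 8.49 and 8.06 FPKM in *smk7a* and at 7.63, 7.30 and 8.16 FPKM in WT, and the groups overlapped. In 12 DAP kernels it was at 9.59, 9.70 and 9.15 FPKM in *smk7a*, below the 13.5, 16.2 and 14.8 FPKM of the WT samples. Its log2 fold change at 12 DAP of -0.64 (SE 0.13; limma, adjusted p = 0.00605) stayed below the fold threshold, whereas rescaled values gave -1.12 (adjusted p = 0.00110) and passed both thresholds. At 20 DAP it was 0.08 (SE 0.10, adjusted p = 0.456) as deposited and -0.48 with rescaled samples (adjusted p = 0.00524), so that its direction at this stage depended on the scaling. The signed genotype difference was higher by 0.72 at 20 than at 12 DAP (SE 0.15; interaction term of limma, adjusted p = 0.00677), and by 0.64 (adjusted p = 0.00932) after scaling. On the deposited scale *smk7a* thus lay below WT at 12 DAP only. With rescaled samples it lay less far below WT at 20 than at 12 DAP. For *Zm00001d001908* the interaction was 0.04 (SE 0.28, adjusted p = 0.916).

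A ratio of both genes within a sample cancels any scaling between samples. This measure was chosen after the values had been seen. *Zm00001d001908* over *Zm00001d001909* gave 0.601, 0.435 and 0.475 in *smk7a* and 0.189, 0.222 and 0.264 in WT at 20 DAP, and 0.557, 0.819 and 0.697 in *smk7a* and 0.252, 0.179 and 0.158 in WT at 12 DAP. The mean ratio was 0.504 ± 0.0869 in *smk7a* and 0.225 ± 0.0373 in WT at 20 DAP, and 0.691 ± 0.131 in *smk7a* and 0.196 ± 0.0491 in WT at 12 DAP (SD, n = 3 each). The *smk7a* ratios all exceeded the WT ratios at either stage (p = 0.1 each in a two-sided exact permutation test), and within a genotype the stages overlapped (p = 0.2 in *smk7a* and p = 0.4 in WT by the exact test).

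**Figure D3:**
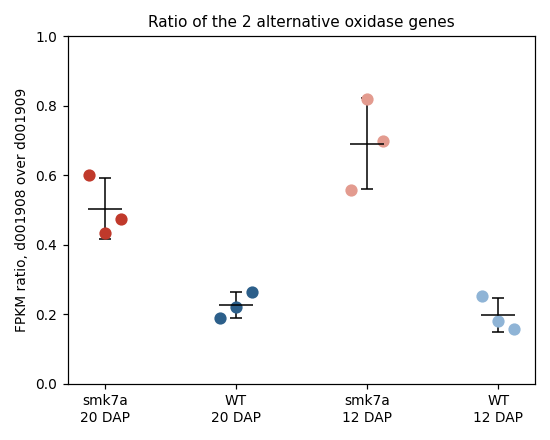
Ratio of the FPKM of *Zm00001d001908* to that of *Zm00001d001909* in each sample (points), with group means (lines) and SD (bars, n = 3). The 6 *smk7a* samples lie between 0.435 and 0.819 and the 6 WT samples between 0.158 and 0.264.

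The third oxidase, *Zm00001d000163*, encodes a 1-aminocyclopropane-1-carboxylate oxidase, which forms ethylene. It was listed at 0.0250, 0.0482 and 0.0986 FPKM in *smk7a* at 20 DAP and at 0 in the other 9 samples. These values are near the smallest in the table, and no fold was computed.

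*Zm00001d002004* (Peroxidase 16) was the only one of these genes called lower in *smk7a* on the deposited scale. It belongs to the secreted heme peroxidases of plants, which use hydrogen peroxide to oxidise phenolics in the cell wall, and its deposited pathway is phenylpropanoid biosynthesis. At 20 DAP it was at 4.999, 5.06 and 5.98 FPKM in *smk7a* and at 16.5, 12.8 and 14.8 FPKM in WT, a 2.71-fold difference on the fitted scale. Kernels of 12 DAP had 4.38, 5.80 and 4.77 FPKM in *smk7a* and 4.03, 3.97 and 5.19 FPKM in WT, with overlapping groups. The WT samples at 20 DAP thus stood apart from the other 9, which all lay between 3.97 and 5.98 FPKM. Between the stages the change in *smk7a* was 0.11 on the log2 scale (SE 0.15, adjusted p = 0.566 by limma), and with rescaled samples 0.54 (adjusted p = 0.0210, below the fold threshold). In WT the gene rose by 1.72 (SE 0.17, adjusted p = 7.03e-05), 1 of 2 genes of the set called in that comparison. The difference between these changes was tested as the stage interaction, which was -1.62 (SE 0.22, adjusted p = 0.000385), or -1.71 with rescaled samples (adjusted p = 0.000409). Peroxidase 16 was the only gene of the set past both thresholds in the interaction. Among all 375 genes tested for it, 5.33% were called with a negative and 6.67% with a positive value, and 6.13% in each direction with rescaled samples. The other peroxidase, *Zm00001d002042* (Peroxidase 52), was listed at 0.0370 FPKM in 1 *smk7a* sample of 20 DAP and at 0 in the other 11 samples.

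*Zm00001d002024*, NADPH-cytochrome P450 reductase 2, was the most highly expressed gene of the set, with a mean of 51.8 FPKM over the 12 samples. The enzyme sits in the endoplasmic reticulum membrane and hands electrons from NADPH to cytochrome P450 hydroxylases, none of which is in the set. At 20 DAP it was at 46.1, 53.3 and 55.8 FPKM in *smk7a* and at 33.5, 27.1 and 35.7 FPKM in WT. At 12 DAP it was at 88.7, 76.9 and 83.6 FPKM in *smk7a* and at 39.4, 44.7 and 37.3 FPKM in WT. The groups did not overlap at either stage. In limma this was 0.69 log2 units at 20 DAP (SE 0.13; adjusted p = 0.00202), below the fold threshold, and 1.04 at 12 DAP (SE 0.13; adjusted p = 0.000780), just past it. The 12 DAP value was 0.99 without *smk7a* replicate 1 and 0.98 without WT replicate 3 of 12 DAP. Rescaled, the gene had 0.13 at 20 DAP (adjusted p = 0.348) and 0.55 at 12 DAP (adjusted p = 0.0130).

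The aldehyde dehydrogenase gene *Zm00001d000116* was likewise higher in *smk7a* at both stages on the deposited scale. Aldehyde dehydrogenases oxidise reactive aldehydes to acids, and the deposited GO terms of this gene include responses to desiccation, salt stress and abscisic acid. It was at 17.0, 18.4 and 17.3 FPKM in *smk7a* and at 11.4, 9.82 and 11.1 FPKM in WT at 20 DAP, and at 44.1, 37.0 and 44.3 FPKM in *smk7a* against 20.3, 18.6 and 20.0 FPKM in WT at 12 DAP. The *smk7a* samples of 20 DAP lay below the WT samples of 12 DAP. Limma gave 0.70 log2 units at 20 DAP (SE 0.10; adjusted p = 0.000585) and 1.08 at 12 DAP (SE 0.14; adjusted p = 0.000780), where the gene passed both thresholds. Rescaled values gave 0.14 (adjusted p = 0.187) at 20 DAP and 0.60 (adjusted p = 0.0183) at 12 DAP, below the fold threshold.

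Of the thiol redox genes, *Zm00001d000305* is described as a disulfide oxidoreductase and electron carrier. Its deposited synonym is aifA of *Dictyostelium*, an apoptosis-inducing factor, so the place of this gene in the thiol redox group rests on the description alone. It was at 6.36, 7.23 and 7.35 FPKM in *smk7a* and at 5.85, 5.27 and 5.79 FPKM in WT at 20 DAP. At 12 DAP it was at 18.2, 16.7 and 17.7 FPKM in *smk7a* and at 8.76, 9.17 and 8.44 FPKM in WT, so that *smk7a* stood at 1.98 times the WT on the fitted scale. At 0.99 log2 units (SE 0.13; limma, adjusted p = 0.000872) this was just short of the fold threshold, which the gene passed with 1.02 without *smk7a* replicate 2 or without WT replicate 2. At 20 DAP it was 0.30 (SE 0.11, adjusted p = 0.0379) as deposited and -0.26 with rescaled samples (adjusted p = 0.0481), and thus changed sign with the scaling. The genotype difference was smaller at 20 than at 12 DAP by 0.68 (SE 0.15; limma's interaction term, adjusted p = 0.00872), and with rescaled samples by 0.77 (adjusted p = 0.00114).

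*Zm00001d001843* (thioredoxin X, a plastid thioredoxin that reduces disulfide bonds of target proteins) was not called in any comparison and is named here after its values had been seen, as the remaining expressed gene. It was at 3.75, 3.44 and 3.57 FPKM in *smk7a* and at 1.66, 2.65 and 2.71 FPKM in WT at 20 DAP, and at 3.75, 4.72 and 3.80 FPKM in *smk7a* and at 3.55, 4.49 and 5.33 FPKM in WT at 12 DAP. Its groups overlapped at 12 DAP. The genotypes differed by 0.63 log2 units at 20 DAP (SE 0.19; limma, adjusted p = 0.0193) and by -0.11 at 12 DAP (SE 0.19; adjusted p = 0.655). With rescaled samples these were 0.08 (adjusted p = 0.827) and -0.58 (adjusted p = 0.0758). The difference of 0.74 (SE 0.28, adjusted p = 0.0790) did not pass the test. A glutaredoxin family gene, *Zm00001d002123*, was listed at 0.0362 FPKM in 1 *smk7a* sample of 12 DAP and at 0 elsewhere.

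The highest of the other reductases was *Zm00001d000401*, of the FAD-dependent oxidoreductase family, a group that uses bound flavin to transfer electrons. It was at 3.78, 4.34 and 2.75 FPKM in *smk7a* and at 2.66, 2.84 and 3.55 FPKM in WT at 20 DAP, with overlapping groups, and at 6.68, 9.73 and 7.39 FPKM in *smk7a* and at 4.88, 5.80 and 4.56 FPKM in WT at 12 DAP, without overlap. Limma's estimates were 0.24 log2 units at 20 DAP (SE 0.19; adjusted p = 0.272) and 0.62 at 12 DAP (SE 0.18; adjusted p = 0.0238), below the fold threshold. Rescaled values were -0.31 (adjusted p = 0.272) at 20 DAP and 0.14 (adjusted p = 0.559) at 12 DAP. The others were not expressed at a level that could be compared. *Zm00001d001873* (hydroxymethylglutaryl-CoA reductase 1, an enzyme of the mevalonate route to isoprenoids) was listed at 0 in all 12 samples, and *Zm00001d000060*, of the NAD(P)-linked oxidoreductases, at 0.0848 and 0.0261 FPKM in 2 *smk7a* samples of 12 DAP only. Of the 6 low genes listed above 0, 5 were so in *smk7a* samples alone, in 1 to 3 samples each. Over all 84 genes of the table that were listed above 0 but never above 0.245 FPKM, 33.3% were listed in *smk7a* samples alone and 20.2% in WT samples alone. The values were too small for a test.

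**Figure D4:**
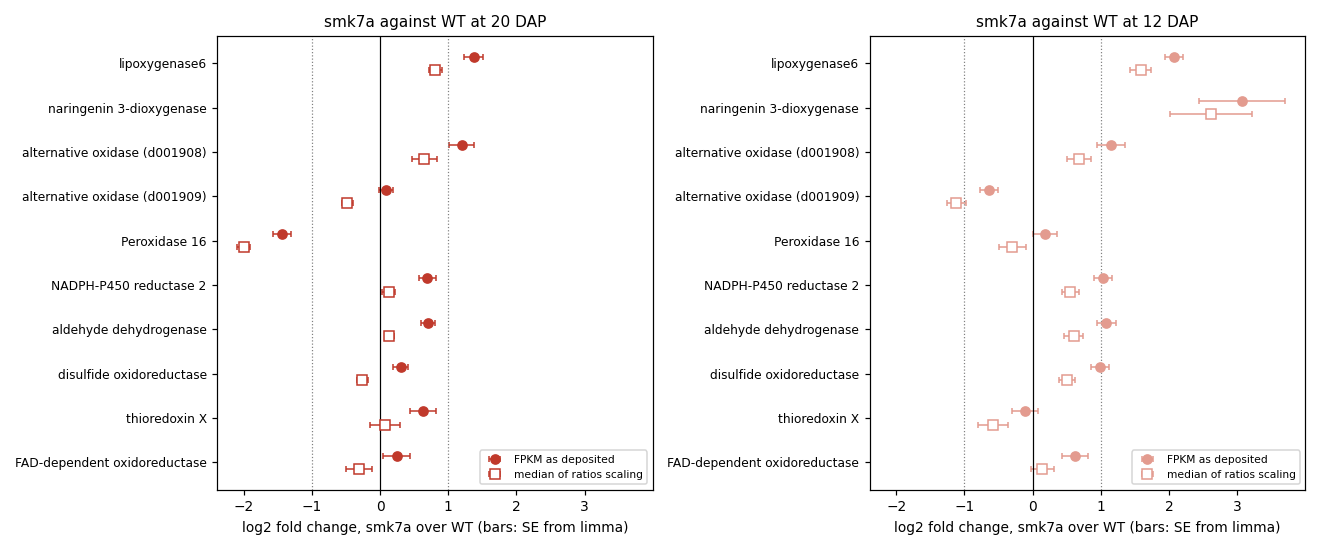
Difference between *smk7a* and WT (log2 fold change) of the expressed oxidoreductase genes at 20 DAP and at 12 DAP, with FPKM as deposited (filled circles) and after median of ratios scaling (open squares). Bars are standard errors from limma, dotted lines mark a fold change of 2, and naringenin 3-dioxygenase was not tested at 20 DAP. Lipoxygenase6 lies at 0.81 or higher under both scalings, and Peroxidase 16 at 20 DAP lies at -1.44 and -2.00.

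Between the stages, most of these genes were lower at 20 than at 12 DAP in both genotypes on the deposited scale. So were most of all genes tested. The log2 change was above 0 for 1 of 10 genes of the set in *smk7a*, beside 23.1% of all genes tested. In WT it was above 0 for 1 of 9, beside 15.4%. With rescaled samples it was above 0 for 3 of 10 in *smk7a*, beside 49.5%, and for 2 of 9 in WT, beside 49.7%. In *smk7a* 5 of the 10 genes tested were lower past both thresholds and 0 were higher, beside 16.2% lower and 3.02% higher over all 364 genes tested in *smk7a*. An unadjusted p under 0.05 by limma was found for 7 genes of the set, beside 216 of the 364. With rescaled samples 2 were called, lipoxygenase6 and naringenin 3-dioxygenase, both lower (6.87% lower and 4.95% higher over all genes). In WT 1 of 9 was lower and 1 was higher, beside 15.7% lower and 2.03% higher over all 344 genes tested in WT, and both were called with rescaled samples as well (4.36% lower and 4.94% higher). Samples of 20 DAP lay below those of 12 DAP without overlap in 8 of 10 genes in *smk7a* (54.1% of all genes, and 8.79% above) and in 8 of 9 in WT (63.1%), with 1 above (4.65%). Lipoxygenase6 (*Zm00001d002000*) was lower at 20 DAP by a log2 change of -2.36 (SE 0.09, adjusted p = 1.34e-05 from limma) in *smk7a* and of -1.66 (SE 0.17, adjusted p = 7.03e-05) in WT, and with rescaled samples of -1.92 in *smk7a* and -1.12 in WT. The fall of naringenin 3-dioxygenase in *smk7a*, given above, was called in a gene that passed the filter only through the samples of 12 DAP. The other falls called in *smk7a* were those of *Zm00001d000305* with -1.32 (SE 0.11), *Zm00001d000116* with -1.24 (SE 0.11) and *Zm00001d000401* with -1.11 (SE 0.21). With rescaled samples these 3 had -0.88 (adjusted p = 0.00138), -0.80 (adjusted p = 0.00330) and -0.68 (adjusted p = 0.0403), below the fold threshold. In WT the same 3 genes had log2 changes of -0.63, -0.86 and -0.73, and with rescaled samples of -0.09 (adjusted p = 0.599), -0.31 (adjusted p = 0.0901) and -0.20 (adjusted p = 0.347). The difference between genotypes passed an adjusted p of 0.05 only for *Zm00001d000305* of these 3 on the deposited scale, and also for *Zm00001d000116* after scaling (adjusted p = 0.0401). The genotype and stage comparisons share samples, so their values are not independent of each other. The count called in WT was 4 without replicate 1 of 12 DAP, when *Zm00001d001843* (-1.06) and *Zm00001d001909* (-1.001) also passed the fold threshold.

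**Figure D5:**
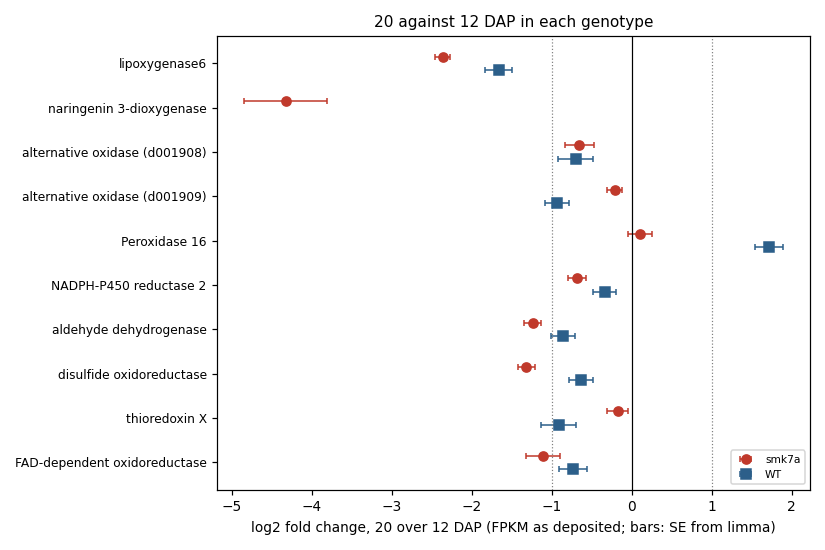
Log2 fold change (20 over 12 DAP, FPKM as deposited) of the expressed oxidoreductase genes in *smk7a* (circles) and WT (squares), with standard errors from limma as bars and dotted lines at a fold change of 2. Peroxidase 16 lies at 0.11 in *smk7a* and 1.72 in WT, and naringenin 3-dioxygenase, at -4.33 in *smk7a*, was not tested in WT.

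A further 9 genes of the table carry redox GO terms, such as heme binding or response to oxidative stress, without a matching description or with the GO term chloroplast. Of these, 3 could be tested at 20 DAP and 4 at 12 DAP by limma, and 0 were called at either stage. At each stage 2 had an unadjusted p under 0.05, beside 247 of all 336 genes tested at 20 DAP and 211 of all 365 at 12 DAP. With rescaled samples 1 was lower at 12 DAP. That gene, *Zm00001d000123* of the NAD(P)-binding Rossmann-fold superfamily, also passed in the interaction, with 1.34 (SE 0.17, adjusted p = 0.000267).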

How the data were processed

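Total RNA from whole kernels was sequenced as stranded mRNA libraries. According to the methods and processing notes, the authors cleaned the reads with Trimmomatic, mapped them with HISAT2 to B73 RefGen_V4, kept only perfect matches and deposited FPKM for each gene and sample. The program behind the FPKM and the software versions are not given in the sources used here. The copy analysed holds 720 genes and ends inside the last annotation cell. FPKM hold no read totals. In 9 genes with values near whole multiples of the smallest (tolerance 0.15), the step of 1 fragment differed little between samples (0.985 to 1.017 of the median). These genes were selected for values near such multiples, so the step cannot show whether the depths were similar.

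No counts were used. Log2(FPKM + 0.1) was fitted with limma 3.58.1 (R 4.3.3, trended prior variance) for all genes exceeding 1 FPKM in 3 or more samples of a comparison, with Benjamini-Hochberg adjustment, on the 6 samples of each comparison or all 12 for the interaction. The authors used DESeq2, which needs counts. On simulated data with changes larger than the fold threshold, the fits recovered most of the known changes. Changes close to the threshold, and a shift of most genes in the same direction, were not simulated. A permutation test over 3 samples against 3 cannot go below p = 0.1. Figures were drawn in matplotlib 3.10.9, and tables came from pandas 2.3.3 under Python 3.11.15. No identifier matched the gene name table (0 of 17), so neither coordinates nor sequences are given. There were 0 unused value columns.

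The genes named are those called in any comparison under either scaling, both peroxidases and the highest gene of each role. The remaining genes of the set fall outside this rule and were named, after their values were seen, so that all 17 are accounted for. Members, lists and tests were chosen with earlier results of these data known. The alternatives were other pseudocounts, filters, scalings, variance models and sample weights, no fold threshold, a replicate block, a common fit of the 12 samples, and leaving out each replicate. The labels call the replicates biological, and which ears they came from is not given. Same-numbered samples were not treated as pairs, since which ears they share is not stated.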

Additional observations from a re-analysis of the deposited data

Results flagged for a closer look

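For 4 genes the difference between *smk7a* and WT was not the same at 20 and 12 DAP by limma's interaction term (20 minus 12 DAP, log2 scale, 12 samples), at an adjusted p under 0.05 over all 375 genes tested, which 79 genes (21.1%) met, or 90 (24.0%) after median of ratios scaling. The difference was -1.62 for Peroxidase 16 (*Zm00001d002004*, adjusted p = 0.000385), where the genotype log2 fold change was -1.44 at 20 DAP and 0.18 at 12 DAP. It was 0.72 for the alternative oxidase gene *Zm00001d001909* (adjusted p = 0.00677), with 0.08 at 20 DAP and -0.64 at 12 DAP. It was -0.70 for lipoxygenase6 (*Zm00001d002000*, adjusted p = 0.0200), with 1.37 at 20 DAP and 2.07 at 12 DAP, and -0.68 for *Zm00001d000305* (adjusted p = 0.00872), with 0.30 at 20 DAP and 0.99 at 12 DAP. All 4 also had an adjusted p under 0.05 after median of ratios scaling (0.000409, 0.00932, 0.00932 and 0.00114 in the same order). With each of the 12 samples left out in turn, the highest adjusted p was 0.00178, 0.0216, 0.0464 and 0.0274, in the same order. By the same interaction term, *Zm00001d000116* (-0.46, adjusted p = 0.0401) and *Zm00001d002024* (-0.43, adjusted p = 0.0452) were under 0.05 after scaling only. On the deposited scale their adjusted p was 0.113 and 0.218. Groups of 3 samples are too small to test for outlying samples.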

How the results depend on the processing

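With median of ratios scaling the number of genes called was 1 instead of 3 at 20 DAP, 3 instead of 5 at 12 DAP and 2 instead of 5 in *smk7a* between the stages, and upper quartile scaling gave the same 3 numbers. Without the fold threshold 7 genes passed at 20 DAP, 8 at 12 DAP, 4 in the interaction and 8 in WT between the stages, beside 69.9%, 51.2%, 21.1% and 61.0% of all genes tested. With a pseudocount of 1 FPKM 2 genes instead of 1 passed in the interaction, the second being naringenin 3-dioxygenase. With each replicate left out in turn the counts were 3 to 3 at 20 DAP, 4 to 6 at 12 DAP, 1 to 1 in the interaction, 4 to 5 in *smk7a* and 2 to 4 in WT between the stages.

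Of 866 log2 fold changes of single genes under an alternative, 791 kept direction and call, 24 lost the call, 27 gained it and 24 changed sign. Other filters, no variance trend, a replicate block, no fold threshold and a common fit leave the log2 fold change itself unchanged. Under these alternatives only the call could differ, so the count of 791 says less about direction than its size. At 20 DAP, *Zm00001d000305*, *Zm00001d000401* and *Zm00001d001909* turned to -0.26, -0.31 and -0.48 with median of ratios scaling and to -0.21, -0.26 and -0.43 with upper quartile scaling. Peroxidase 16 at 12 DAP turned to -0.30 and -0.26 under these scalings, and thioredoxin X at 12 DAP to 0.0270 without WT replicate 3. In *smk7a* between the stages, *Zm00001d001843* turned to 0.26 and 0.17 and *Zm00001d001909* to 0.22 and 0.14, and in WT *Zm00001d002024* to 0.21 and 0.13. The interaction of *Zm00001d001908* turned to -0.0571 with a pseudocount of 1, to -0.0250 and -0.0912 under the scalings, and, over a range of -0.0905 to 0.200 with each replicate left out, to a negative value without replicate 1 of *smk7a* at 20 DAP, WT at 20 DAP, *smk7a* at 12 DAP or WT at 12 DAP. That of *Zm00001d001960* turned to 0.14 with sample weights and, over a range of -1.28 to 0.10 with each replicate left out, to 0.10 without WT replicate 3 of 12 DAP. None of these was called.

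With the replicate number as a block the called genes were the same in all 5 comparisons (3, 5, 1, 5 and 2 of the 17 genes). Of 12 same-numbered pairs 4 had a correlation of deviations over 0.1 (range -0.29 to 0.17), and 5 correlated best with their own number. FPKM keep no counts, so values under 1 FPKM limit what can be compared. The causes were not tested.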
